A study of Mus musculus with 47 samples.

Results

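DNA methylation writers and erasers were followed in allele-resolved scRNA-seq of mouse iPSCs that carry either both X chromosomes or only one. The genes were chosen by name: Dnmt1, Uhrf1, Dnmt3a, Dnmt3b, Dnmt3l, Tet1, Tet2 and Tet3. All 8 are among the 13947 genes of the allelic count table. A mean of at least 5 allelic counts per cell was reached by 6 of them and by 4149 genes in all, and Dnmt3a and Tet3, which did not reach it, are given as counts only.

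The 47 iPSCs were sorted into 1 plate and are hybrids of the strains called Mus and Cast, whose SNPs let a read be assigned to its allele. The authors wrote a class into each column name: 23 cells with expression from both X chromosomes (biallelic cells), 15 with only the Cast X (Cast-X cells) and 9 with only the Mus X (Mus-X cells). The 24 cells of the latter classes together are called single-X cells. The study used X chromosome loss, which is common in cultured female pluripotent cells, to ask whether the X that is left changes its output. All cells share what preceded the sort: reprogramming of fibroblasts (in the study's general protocol from lentiviral vectors with doxycycline) and culture in medium with serum and LIF. The labels and the culture methods of the study add ascorbic acid, which is known to promote TET activity, while its reprogramming methods describe control iPSC colonies passaged without it. Sorted cells also went through a short reaction with a GpC methylase before RNA capture. Neither age nor culture is given for a cell, and whether a class descends from 1 clone or several is not given in the sources used here. The 47 cells are therefore 1 sample, no p-value or standard error was computed, and medians and ranges over cells describe this plate only.

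Total allelic counts ranged from 71682 to 216451 per cell, with medians of 164722 in biallelic, 168885 in Cast-X and 179357 in Mus-X cells. The study sorted iPSCs into groups by their mean X-linked allelic ratio, with limits of 0.15 and 0.85. The same rule gave all 47 cells the class in their column name, which repeats that grouping and is no separate check. The 47 wells had 47 distinct index pairs. The position on the plate was not balanced: columns 1 to 3 held 12 biallelic, 5 Cast-X and 6 Mus-X cells, and columns 4 to 6 held 11, 10 and 3. Rows A to D held 9, 8 and 6 of these classes, and rows E to H held 14, 7 and 3. Values within each side of the plate (by columns) are given beside many of the results because several of them differed between the sides. Values by rows are given for some genes. Of the naive pluripotency markers, all 9 listed had counts. Of the primed or early lineage markers in the table, 3 had counts, and Fgf5 and Gata6 were at 0 in every cell. Of the fibroblast markers in the table, 4 had counts, and Col1a2, Prrx1 and Postn were at 0 in every cell. Primed or early lineage markers had a count in 16 of 23 biallelic, 4 of 15 Cast-X and 5 of 9 Mus-X cells. For fibroblast markers these numbers of cells were 8, 5 and 2.

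DNMT1 copies methylation to the new strand after replication and is guided there by UHRF1, which binds hemimethylated CpG sites. DNMT3A and DNMT3B methylate new sites, and DNMT3L, which has no catalytic activity, stimulates both of them. TET1, TET2 and TET3 oxidise methylated cytosine, which starts its removal. Female pluripotent cells with both X chromosomes active are known for low DNA methylation, and methylation is regained when an X is lost. Methylation itself is not in the count table, so the values below are levels of transcripts.

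The promoters of 3 genes are shown because the results turn on them: Dnmt3b and Dnmt3l, whose levels co-varied most among the writers, and Dazl, a germline gene kept silent by promoter methylation in most tissues. Each window is RefSeq sequence of GRCm38.p6 on the strand of the gene, from 250 bases before to 50 bases after a transcription start, with each CG in capitals. RefSeq held windows for all 8 members. The windows lie at chr2:153649199-153649498 on the plus strand, chr10:78042037-78042336 on the plus strand and chr17:50293571-50293870 on the minus strand.
Dnmt3b: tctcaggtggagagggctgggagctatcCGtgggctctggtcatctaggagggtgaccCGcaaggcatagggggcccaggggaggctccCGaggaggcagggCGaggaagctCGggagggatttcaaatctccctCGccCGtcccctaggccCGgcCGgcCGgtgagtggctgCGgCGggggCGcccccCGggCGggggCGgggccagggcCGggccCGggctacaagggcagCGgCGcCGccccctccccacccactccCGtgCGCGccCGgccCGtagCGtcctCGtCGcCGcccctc
Dnmt3l: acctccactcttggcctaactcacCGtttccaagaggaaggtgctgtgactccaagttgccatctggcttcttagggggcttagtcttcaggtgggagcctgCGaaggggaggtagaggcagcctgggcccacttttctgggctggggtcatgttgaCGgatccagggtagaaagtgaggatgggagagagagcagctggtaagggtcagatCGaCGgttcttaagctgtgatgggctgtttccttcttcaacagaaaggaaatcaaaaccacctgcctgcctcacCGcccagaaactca
Dazl: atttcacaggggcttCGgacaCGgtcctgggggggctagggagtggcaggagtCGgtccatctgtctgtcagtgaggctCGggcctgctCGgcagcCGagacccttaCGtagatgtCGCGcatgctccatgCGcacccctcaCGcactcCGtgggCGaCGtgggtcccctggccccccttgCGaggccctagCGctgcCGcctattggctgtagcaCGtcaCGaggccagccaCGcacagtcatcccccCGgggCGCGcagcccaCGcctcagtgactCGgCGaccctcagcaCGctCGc

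The motif searched was CG, which reads the same on both strands. The Dnmt3b window held 30 of them, as many as or more than 89.4% of the 32851 windows of this length in RefSeq, and the Dazl window held 28 (87.1%). The Dnmt3l window held 6 (47.9%), near the median of 7 over all windows, and 94.6% of windows held at least 1. RefSeq gives Dnmt3l 2 further starts, whose windows held 4 and 3, and which start these cells use was not tested. These counts describe the sequence, and nothing was measured on it here.

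A level is given as the counts of both alleles of a gene per 10000 allelic counts of the cell. The number of SNPs differs between genes, so levels were compared between cells and not between genes. A difference is given as the log2 ratio of the mean level in single-X cells to that in biallelic cells, with a 95% interval from the summed counts for counting error only. A gene was counted as higher or lower where the ratio of means differed by at least 25%, the size that the study's methods use. All 6 writers and erasers had a ratio above 1, and Dnmt1, Dnmt3b, Dnmt3l and Tet1 were at least 25% higher, while none was at least 25% lower. Of all 4149 genes tested, 27.8% were higher and 18.1% lower by this limit, and 53.2% had a ratio above 1. The median log2 ratio was 0.38 over the 6 members and 0.04 over all genes tested.

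The position on the plate divided this result. In plate columns 1 to 3, 5 of the 6 were at least 25% higher, beside 32.2% of all genes, and 0 were lower, beside 23.3%. In columns 4 to 6, only Dnmt1 was at least 25% higher, beside 30.2% of all genes, and Dnmt3b was at least 25% lower, beside 24.6%. The median log2 ratio of the 6 was 0.59 on the one side and -0.10 on the other, against 0.05 and 0.02 over all genes. Some of these calls rested on 1 cell: without B01, Dnmt1 (0.16) and Tet2 (0.23) were within the limit in columns 1 to 3, and in columns 4 to 6 Dnmt1 was within it without F05 (-0.09) and Dnmt3b without B06 (-0.30). Why the sides differ was not tested.

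Among the genes that maintain methylation, Dnmt1 (chr9:20907209-20959888, minus strand) was sparsely counted, with 383 counts in 40 of the 47 cells. Its lowest, median and highest levels were 0, 0.391 and 1.04 in biallelic cells, 0, 0.409 and 2.38 in Cast-X cells and 0.0942, 0.468 and 1.85 in Mus-X cells. The classes overlapped over most of their range, and a single-X cell exceeded a biallelic cell in 54.2% of pairs of cells, with ties shared equally. The log2 ratio of means was 0.43 (95% interval 0.10 to 0.71), with 0.50 in plate columns 1 to 3 (0.16 without cell B01) and 0.36 in columns 4 to 6 (-0.09 without cell F05). The log2 ratio of medians was 0.09. Without the Cast-X cell in well F05, which held more of its counts (15.7% of those of single-X cells) than any other, the log2 ratio of means was 0.22, below the 25% limit.

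Uhrf1 (chr17:56303321-56323486, plus strand) was counted in all 47 cells. Its levels ran from 0.380 to 4.14 with a median of 1.68 in biallelic cells, from 0.102 to 5.98 with a median of 2.38 in Cast-X cells and from 0.698 to 4.74 with a median of 2.39 in Mus-X cells. Of the 24 single-X cells, 18 lay above the biallelic median, the ranges overlapped, and 56.2% of pairs of cells had the single-X cell higher. The ratio of means was within the 25% limit, with a log2 ratio of 0.20 (0.08 to 0.35), whereas the ratio of medians was 1.42. The log2 ratio of means was 0.21 in columns 1 to 3 and 0.18 in columns 4 to 6. By rows it was 0.38, past the 25% limit, in rows A to D and -0.04 in rows E to H.

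**Figure D1:**
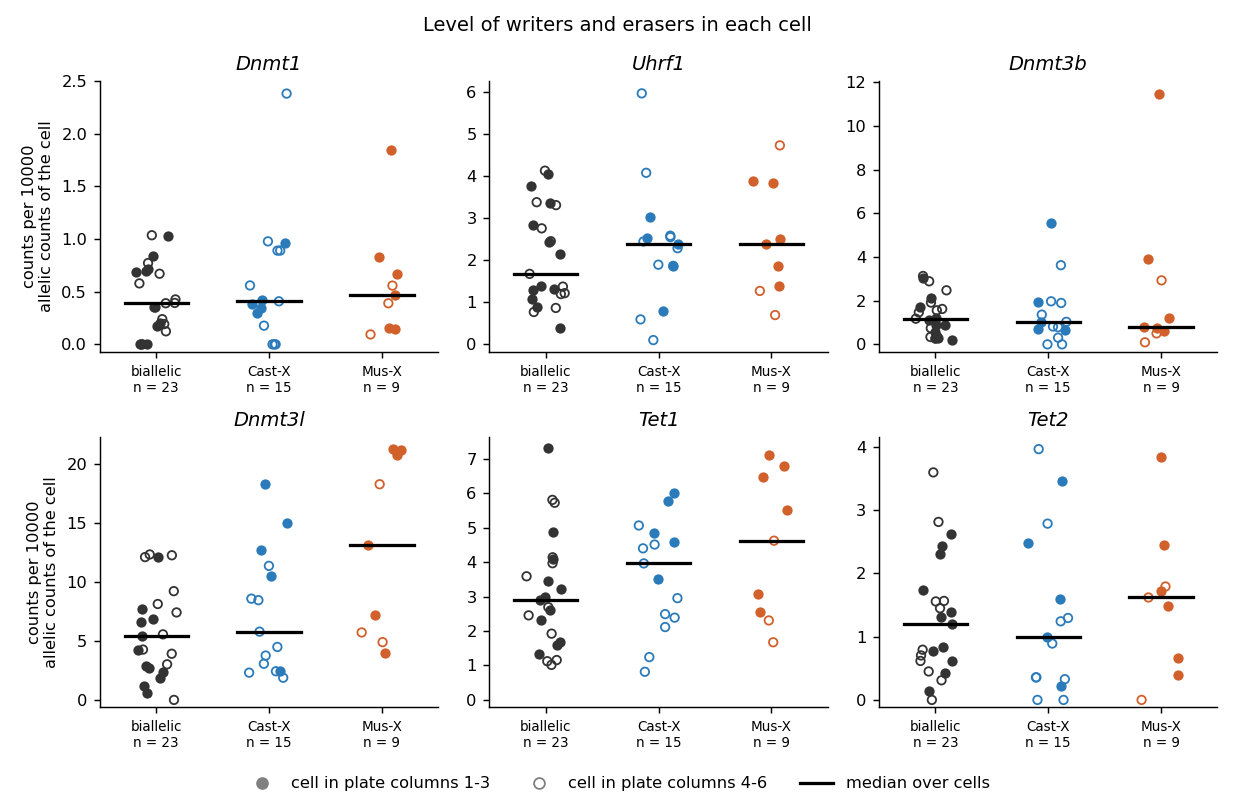
Level of each writer and eraser that passed the filter in each of the 47 cells, as counts per 10000 allelic counts of the cell, by class. Filled points are cells in plate columns 1 to 3, open points cells in columns 4 to 6 and bars medians over cells; the classes overlap for every gene, and Dnmt3l reaches above 12.3, the highest biallelic cell, in 8 single-X cells.

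Of the de novo enzymes, Dnmt3a (chr12:3806007-3914443, plus strand) was near absent from these counts. It had 0 counts in the 23 biallelic cells, which allows a share of cells with a count of up to 13%, and 10 counts in 1 Cast-X cell and 2 in 1 Mus-X cell. No ratio is given, since 1 cell held 83.3% of the counts.

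Dnmt3b (chr2:153649450-153687730, plus strand) was counted in 45 cells. Its levels were 0.210, 1.17 and 3.13 (lowest, median and highest) in biallelic cells, 0, 1.03 and 5.56 in Cast-X cells and 0.0942, 0.809 and 11.5 in Mus-X cells. The median was thus lower in both single-X classes, while the highest cells were single-X cells: 4 of 24 lay above every biallelic cell and 3 lay below every one. The mean and the median went opposite ways, with a log2 ratio of 0.48 (0.34 to 0.67) for means and -0.34 for medians. Cell C01 alone held 58.8% of the Dnmt3b counts of the Mus-X class, and without it the log2 ratio of means over all single-X cells was 0.10. By side of the plate it was 1.31 in columns 1 to 3, or 0.70 there without C01, and -0.45 in columns 4 to 6, or -0.30 there without B06. The direction for Dnmt3b thus differed with the summary used and with the side of the plate.

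Dnmt3l (chr10:78041947-78063622, plus strand) had the largest log2 ratio of the 6, 0.72 (0.65 to 0.80), with 6016 counts in 46 cells. Its levels were 0, 5.46 and 12.3 in biallelic cells, 1.88, 5.79 and 18.3 in Cast-X cells and 3.97, 13.1 and 21.3 in Mus-X cells. The Mus-X class stood highest, with 5 of 9 cells above every biallelic cell and the higher value in 78.7% of pairs, and the Cast-X class had 3 of 15 such cells and 58.3% of pairs. The log2 ratio was 1.16 for Mus-X and 0.36 for Cast-X, and leaving out any 1 cell kept the ratio over all single-X cells between 1.55 and 1.73. Of the 8 single-X cells above every biallelic cell, 7 lay in plate columns 1 to 3. In those columns the single-X levels were 2.43, 13.1 and 21.3 and the biallelic levels 0.596, 3.58 and 12.1, with a log2 ratio of 1.55. In columns 4 to 6 the single-X levels were 1.88, 4.90 and 18.3 and the biallelic levels 0, 7.42 and 12.3, and the log2 ratio was -0.19. In columns 1 to 3 both classes were higher, with 1.37 for Cast-X and 1.68 for Mus-X cells. In columns 4 to 6 Cast-X cells were at -0.45 and the 3 Mus-X cells at 0.44, of which 1 cell stood at 18.3 and the others at 4.90 and 5.72.

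The start of Dnmt3l overlaps the start of Aire, which lies head to head with it on the other strand, over 1664 bases (chr10:78041947-78043610), and the window printed above lies inside that overlap. The libraries do not mark the strand, so reads from there cannot be assigned to a gene. Aire, a transcriptional regulator known from the thymus, had 2074 counts in 33 cells, a log2 ratio of -0.20 and a Mus share of 31.8%, against 52.8% for Dnmt3l. The part of shared reads in either gene was not tested. Dnmt3b overlaps the antisense gene Dnmt3bos over 837 bases, and Dnmt3bos is not in the count table.

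Among the erasers, Tet1 (chr10:62804570-62908996, minus strand) was counted in all 47 cells. Its levels were 1.02, 2.90 and 7.33 in biallelic cells, 0.817, 3.97 and 6.02 in Cast-X cells and 1.67, 4.63 and 7.12 in Mus-X cells. The medians of both single-X classes were higher, yet no single-X cell exceeded the highest biallelic cell, and 63.0% of pairs had the single-X cell higher. The log2 ratio of means was 0.34 (0.23 to 0.45), of which leaving out cell C01 left 0.29, below the 25% limit. It was also below the limit with autosomal counts as the total (0.28), TMM factors (0.28) and Mus counts only (0.18). The log2 ratio was 0.68 in plate columns 1 to 3 and -0.04 in columns 4 to 6. By rows it was 0.14, within the limit, in rows A to D and 0.34 in rows E to H. The biallelic mean was 4.07 in rows A to D and 2.53 in rows E to H.

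Tet2 (chr3:133463679-133545139, minus strand), counted in 43 cells, had levels of 0, 1.20 and 3.59 in biallelic cells, 0, 0.993 and 3.96 in Cast-X cells and 0, 1.62 and 3.84 in Mus-X cells. Its classes overlapped throughout, with the single-X cell higher in 51.0% of pairs and a log2 ratio of 0.13 (0.01 to 0.36). By plate rows the log2 ratio was 0.45 in rows A to D and -0.86 in rows E to H. Tet3 (chr6:83362373-83459084, minus strand) had 50 counts in 10 cells. It was counted in 5 of 23 biallelic, 3 of 15 Cast-X and 2 of 9 Mus-X cells, and at 24, 16 and 10 summed counts no difference was detectable at this depth.

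**Figure D2:**
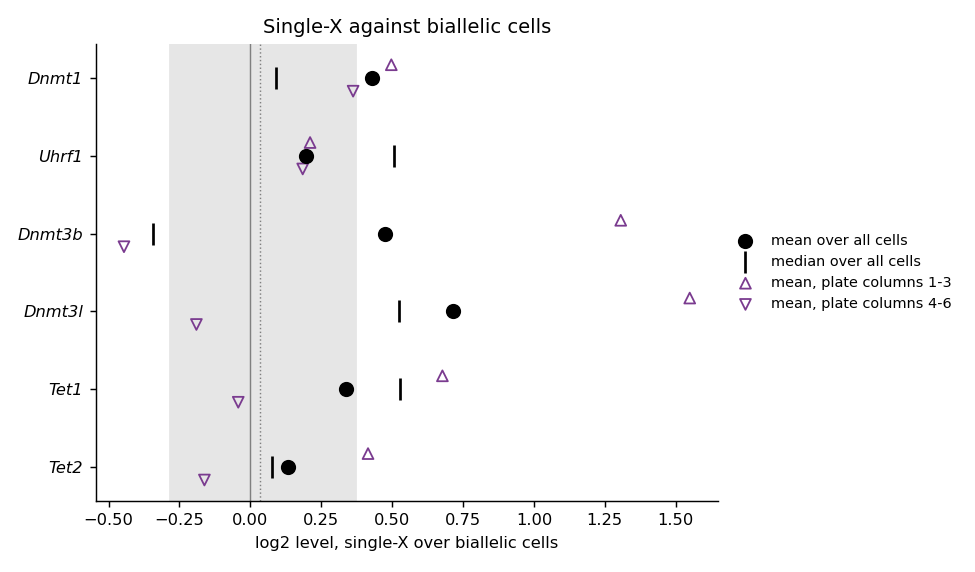
Log2 ratio of the level in single-X cells to that in biallelic cells for the 6 genes that passed the filter, from means over all cells (circles), medians over all cells (bars) and means within plate columns 1 to 3 and 4 to 6 (triangles). The shaded band spans the quartiles of all 4149 genes tested and the dotted line is their median of 0.04; Dnmt3b and Dnmt3l lie above 1 in columns 1 to 3 and below 0 in columns 4 to 6.

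The single-X classes were also compared with biallelic cells one at a time, and these comparisons share their biallelic cells. In Cast-X cells Dnmt1 and Dnmt3l were at least 25% higher, beside 27.7% of all genes tested, with Dnmt1 at a log2 ratio of 0.07 without cell F05 and Dnmt3l at 0.20 without cell E02, and 0 of the 6 were lower, beside 20.8%. In Mus-X cells Dnmt1, Dnmt3b, Dnmt3l and Tet1 were at least 25% higher, beside 30.9%, with Dnmt1 at -0.05 without cell B01 and Dnmt3b at 0.03 without cell C01, and 0 were lower, beside 25.5%. The median log2 ratio of the 6 was 0.19 in Cast-X and 0.46 in Mus-X cells, with 0.01 and 0.02 over all genes tested. The chromosomes that carry the 8 genes took 0.962 to 1.03 times the share of autosomal counts in single-X cells that they took in biallelic cells. The share of 1 chromosome also varied between cells, from 2.25% to 3.92% for chromosome 12, and the part of chromosome number in the levels was not tested.

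Both alleles of the 6 tested members had counts, with departures from the autosomal share. The Mus share of the summed counts was 42.9% over all autosomal genes, and the median autosomal gene tested had 45.9% (quartiles 33.6% and 54.4%). Uhrf1 lay above this in all 3 classes, at 61.8% (95% Clopper-Pearson interval 59.5% to 64.1%) over all cells, while its chromosome had 44.4%. Tet2 also lay above it in all 3 classes, at 59.2% (56.2% to 62.2%) over all cells, on a chromosome with 44.4%. Dnmt1 at 44.6% (39.6% to 49.8%) and Dnmt3b at 42.0% (39.2% to 44.8%) lay near their chromosomes, at 41% and 45.3%. Dnmt3l at 52.8% and Tet1 at 52.3% lay near the 50.1% of chromosome 10, which carries both. Leaving out 1 cell moved the share of Dnmt1 most, to 39.1% without cell F05, and kept that of Uhrf1 between 61.0% and 63.2%.

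Between classes, the Mus share of Tet1 was 55.7% (52.8% to 58.6%) in biallelic cells and 55.8% (52.5% to 59.0%) in Cast-X cells, but 41.4% (37.6% to 45.2%) in Mus-X cells, where chromosome 10 as a whole had 50.9%. In single Mus-X cells the share ran from 4.35% to 100%, and leaving out any 1 of the 9 cells gave 34% to 47.3%. Dnmt3b went the other way, from 36.6% in biallelic cells to 51.1% in Mus-X cells, of whose Dnmt3b counts 58.8% came from cell C01. Of the 24 Tet3 counts in biallelic cells 0 were Mus, which by the limit of 3 counts allows a Mus share of up to 12.5%, whereas 5 of the 10 in Mus-X cells were Mus. These intervals cover counting error only, and a read that spans several SNPs may be counted more than once.

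**Figure D3:**
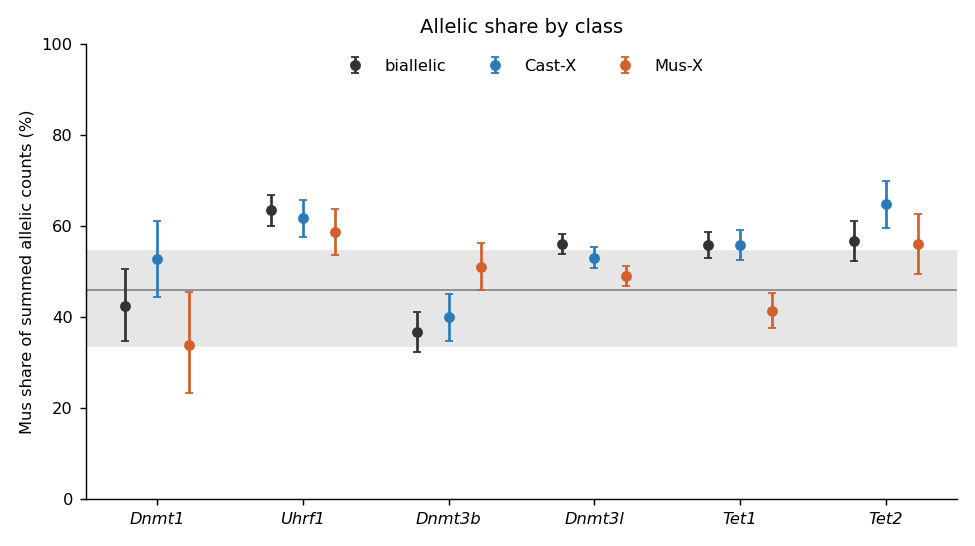
Mus share of the summed allelic counts of each gene by class, in percent, with 95% Clopper-Pearson intervals for counting error only. The line and band are the median of 45.9% and the quartiles over 4033 autosomal genes tested. Uhrf1 and Tet2 lie above the band in every class, and Tet1 in Mus-X cells lies at 41.4%.

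Within a cell, the alleles of a gene can be on together or in turn. The Spearman correlation over cells between the Cast and the Mus level of a gene was 0.66 for Dnmt3l, higher than for 97.6% of autosomal genes tested. It was 0.41 for Dnmt3b, 0.35 for Uhrf1, 0.21 for Tet2, 0.06 for Dnmt1 and -0.05 for Tet1, with a median of 0.21 over autosomal genes. Among cells with at least 10 counts of the gene, 14 of 17 had counts of both Dnmt1 alleles, 31 of 35 of both Dnmt3b alleles, 44 of 46 of both Dnmt3l alleles and 24 of 32 of both Tet2 alleles. For Tet2, 5 cells had Mus counts only and 3 had Cast counts only. Cells of 1 plate share their library preparation and differ in depth, so these correlations are descriptions.

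Over the 47 cells the levels of the members were weakly related. The Spearman correlations of the 15 pairs ran from -0.10 to 0.35 with a median of 0.12, and 10 of the 15 were positive. The median was -0.021 in biallelic cells alone. Over all pairs of genes tested, 4556697 of 8605026 were positive, the median was 0.01, and 90% of pairs lay between -0.24 and 0.26. The highest values were those of Dnmt3b with its cofactor Dnmt3l (0.35, above 98.7% of all pairs), Uhrf1 with Dnmt3l (0.31) and Uhrf1 with Dnmt3b (0.26). Dnmt1 and Uhrf1, which act together, had -0.07 over all cells, -0.46 in plate columns 1 to 3 and 0.15 in columns 4 to 6. Dnmt3b with Dnmt3l was 0.38 when every cell was thinned to 71682 counts, and it was 0.50 in plate columns 1 to 3 and 0.17 in columns 4 to 6.

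Several pairs had different values in the classes. Dnmt3b with Dnmt3l was 0.56 in biallelic cells (0.76 and 0.22 in plate columns 1 to 3 and 4 to 6) and 0.17 in single-X cells (-0.05 and 0.07). Dnmt3l with Tet1 was -0.29 in biallelic cells (-0.62 and 0.05) and 0.54 in single-X cells (0.10 and 0.58). Dnmt1 with Dnmt3l was -0.47 in biallelic cells, -0.37 and -0.69 on the sides of the plate, and 0.28 in single-X cells. Whether the classes differ in these values was not tested, and in counts as sparse as those of Dnmt1 a correlation over so few cells is loosely fixed.

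**Figure D4:**
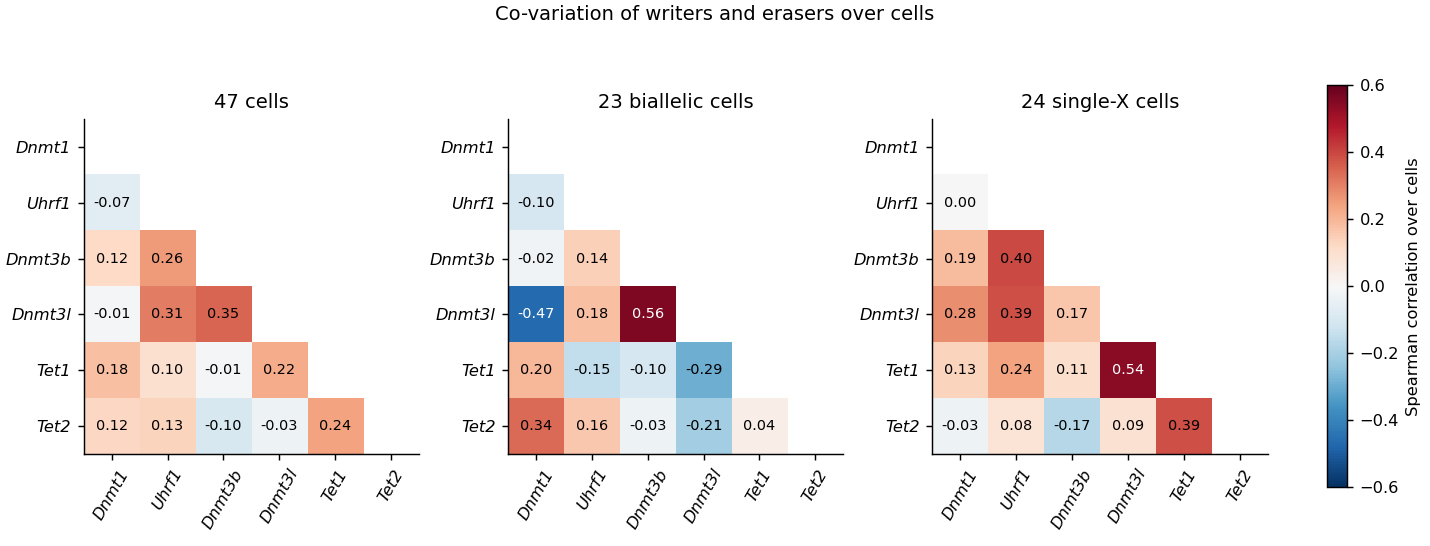
Spearman correlation over cells between the levels of each pair of writers and erasers, in all 47 cells, in the 23 biallelic cells and in the 24 single-X cells. Red is positive and blue negative; Dnmt3b with Dnmt3l is the highest pair over all cells (0.35), and Dnmt3l with Tet1 is -0.29 in biallelic and 0.54 in single-X cells.

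The levels of Uhrf1 and Dnmt3b moved with Pcna, and the other members less so. The level of Pcna, the sliding clamp of replication, correlated with Uhrf1 (0.46) and Dnmt3b (0.49) over the 47 cells and on both sides of the plate (0.47 and 0.44 for Uhrf1, 0.36 and 0.61 for Dnmt3b). In biallelic and single-X cells it had 0.31 and 0.57 with Uhrf1, and 0.42 and 0.58 with Dnmt3b. Within 1 class and 1 side, the lowest value was 0.13 and the highest 0.84, both for Dnmt3b in biallelic cells (columns 1 to 3 and 4 to 6). With Pcna over all cells, Dnmt3l had 0.29, Tet1 0.08, Dnmt1 0.03 and Tet2 -0.22. The summed level of the 12 S phase genes in the table correlated with Dnmt3b (0.41), Uhrf1 (0.35) and Dnmt3l (0.31), and had 0.08 with Tet2, -0.10 with Dnmt1 and -0.18 with Tet1. With Lig1, the replicative ligase, Uhrf1 had -0.04 and Dnmt1 0.31 (-0.03 in biallelic and 0.51 in single-X cells). Uhrf1 correlated negatively with the summed genes of G2 and mitosis (-0.39). Dnmt3l and Nanog, a naive pluripotency factor, had -0.50 over all cells, -0.50 in biallelic and -0.32 in single-X cells. In plate columns 1 to 3 and 4 to 6 this pair had -0.61 and -0.37 over all cells. By the same sides it had -0.29 and -0.54 in biallelic and -0.06 and -0.45 in single-X cells. Dnmt3b and Prdm14, which is known to repress the de novo enzymes in naive cells, had -0.35, with -0.50 in biallelic and -0.31 in single-X cells, whereas Dnmt3l and Prdm14 had -0.20, with -0.55 and 0.24. With depth, the correlations of the 6 ran from -0.06 to 0.25.

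The 3 genes whose levels were most like each member were named by Spearman correlation over the 47 cells among the 4149 genes tested, from which a high value is bound to be found for any gene. For Dnmt1 they were Hsp90aa1 (0.50), Actr3b (0.47) and Tmem126b (0.47), and for Uhrf1 they were Ccne1 (0.47), Sephs1 (0.47) and Ctsz (0.46). For Dnmt3b they were Rnps1 (0.52), Clns1a (0.51) and Pcna (0.49). For Dnmt3l they were Aire (0.57), which shares sequence with it as described above, Hmces (0.50) and E2f8 (0.48). For Tet1 they included Ehmt1 (0.60) and Ppm1a (0.51), and for Tet2 they were Tnrc6c (0.58), Hmgn1 (0.50) and Tbl3 (0.48).

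Genes of the lists that follow were in part named after their values were seen, and each list's counts stand beside the 27.8% of all genes tested that were higher and the 18.1% that were lower. Without the filter on low counts, an alternative added after seeing the data, these shares are 38.3% and 31.9% of 12185 genes. Of 14 partners and readers of maintenance methylation listed, 9 were in the table and 5 were tested, of which 3 were at least 25% higher and 0 lower, with a median log2 ratio of 0.38 beside 0.04 over all genes tested. Without the filter, 3 were higher and 3 lower among 8 with counts. Lig1, which seals nicks in the new strand, was higher with a log2 ratio of 0.52, Pcna with 0.47 and Usp7, a deubiquitinase that binds DNMT1 and UHRF1, with 0.38. Lig1 was within the limit in plate columns 1 to 3 (0.18) and higher in columns 4 to 6 (0.89), and Usp7 was within it in Cast-X cells (0.23) and higher in Mus-X cells (0.60). Pcna had lowest, median and highest levels of 2.04, 3.78 and 6.93 in biallelic cells and 2.08, 5.32 and 10.3 in single-X cells, with 7 of 24 single-X cells above every biallelic cell. Its log2 ratio was 0.57 in plate columns 1 to 3 and 0.37 in columns 4 to 6, where it was at 0.27, within the limit, without cell F05. The values of Hells, a chromatin remodeller needed for methylation, and of its activator Cdca7 were -0.26 and 0.07.

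Genes that act after TET oxidation or feed it went both ways. Of 20 listed, 16 were in the table and 8 were tested, with 2 higher and 2 lower and a median log2 ratio of 0.01. Xrcc1, the scaffold of base excision repair, was higher with 0.71, in both classes and on both sides of the plate (0.44 and 1.04), though in columns 1 to 3 it was at 0.19 without cell E02. The other calls each rested on 1 class. Hmces was at -0.07 in Cast-X and 0.90 in Mus-X cells, Lig3, the ligase that XRCC1 binds, at -0.87 and 0.11, and Idh2, a mitochondrial isocitrate dehydrogenase, at -0.66 and -0.14. Of 12 genes of methyl donor metabolism, 6 were in the table and 4 were tested, and 0 were higher or lower, with log2 ratios from -0.18 for Shmt2 to 0.13 for Tdh.

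Of 10 regulators of methylation in naive cells listed, 8 were in the table and 6 were tested, with 3 lower and 3 higher. Prdm14 was lower in single-X cells with a log2 ratio of -1.44 and Nanog with -1.18, and both were lower in both classes. By side of the plate Nanog was at -1.46 and -0.87, and Prdm14 at -2.22 and -0.49, the latter 0.12 without the biallelic cell E05. Prdm14 levels were 0, 0.926 and 4.86 in biallelic cells, 0, 0.121 and 3.15 in Cast-X cells and 0, 0.333 and 1.11 in Mus-X cells. Nanog levels were 0.898, 2.87 and 7.96 in biallelic cells and 0, 1.40 and 3.23 in single-X cells, of which 8 of 24 lay below every biallelic cell. Klhl13, which is X-linked and so differs in copy number, was lower with -0.58 (-0.31 in Cast-X and -1.20 in Mus-X cells). Dppa3, which binds UHRF1 and keeps it from chromatin, was higher with 0.86. It stood at 0, 3.59 and 30.2 in biallelic and 0, 7.45 and 71.1 in single-X cells, and 1 cell, C04, held 45.7% of its Cast-X counts. Without C04 its log2 ratio was 0.50. By plate columns it was 0.53 in columns 1 to 3, with Cast-X cells at -0.12 and 0.26 without cell C01, and 1.18 in columns 4 to 6. By rows it was 1.29 in rows A to D and 0.16, within the limit, in rows E to H. The histone methyltransferase genes Setdb1 and Ehmt1 were also counted as higher, but Ehmt1 was within the limit in Mus-X cells (0.20). Setdb1 was at -0.09 in Cast-X and 1.52 in Mus-X cells, with the single-X cell higher in 49.8% of pairs and a counting interval for the summed counts (-0.05 to 0.61) that spans 0.

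Among germline genes that promoter methylation is known to silence, Dazl and Hormad1 were lower in single-X cells. Of 13 listed, 11 were in the table. Without the filter, 7 of these 11 were at least 25% lower and 3 higher, beside 31.9% and 38.3% of all genes with a count. The 7 include Sycp1, Asz1 with 7 counts in 1 biallelic cell, Tdrd1 with 4 in 1 biallelic cell and Brdt with 48.6% of its 37 biallelic counts in cell F04, and the 3 include Tex101 with 22 counts in 1 single-X cell, so nothing is read from these counts. Another that was higher is Ddx4, a germ cell RNA helicase, with a mean level of 0.123 in biallelic and 0.182 in single-X cells from 45 and 76 counts. The filter was passed by 4, of which Sycp1 passed only through the biallelic cells, with 9.70 counts per cell there and 1.5 in single-X cells, so no count over the 4 is given. Dazl, an RNA-binding protein of germ cells (window shown above), had levels of 0, 1.94 and 15.5 in biallelic cells, 0, 0.298 and 7.16 in Cast-X cells and 0, 0 and 1.14 in Mus-X cells, a log2 ratio of -2.61. It was counted in 17 of 23 biallelic, 10 of 15 Cast-X and 3 of 9 Mus-X cells, and cell A04 held 60.8% of its Cast-X counts. Without that cell the log2 ratio was -3.47. With all cells it was -2.97 in plate columns 1 to 3 and -2.47 in columns 4 to 6, and leaving out any 1 cell within a side kept it at or below -2.19. Sycp1, of the synaptonemal complex, had a log2 ratio of -2.90, given as a description only, with -2.25 without the biallelic cell F04, which held 38.6% of the counts of that class, and -3.50 without the Mus-X cell B05. Hormad1, a protein of meiotic chromosome axes, had -1.17, with levels of 0.491, 1.92 and 4.58 in biallelic cells and 0, 0.545 and 2.64 in single-X cells, and 11 of 24 single-X cells lay below every biallelic cell. It was -0.30 in columns 1 to 3, within the 25% limit, and -2.34 in columns 4 to 6. Tex19.1 was at -0.22. Over the cells, Dazl correlated with none of the 6 members beyond -0.15 and 0.08.

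**Figure D5:**
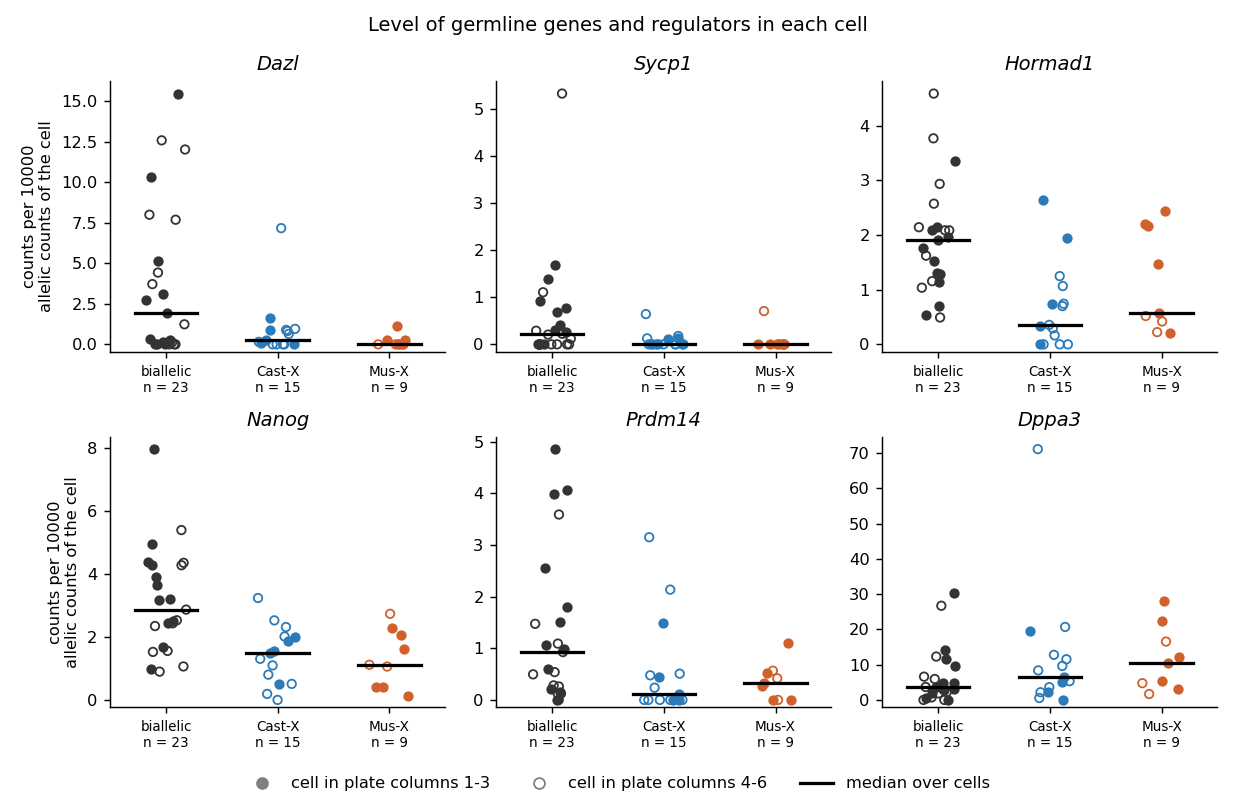
Level of 3 germline genes (top) and 3 regulators of methylation (bottom) in each of the 47 cells, as counts per 10000 allelic counts of the cell, by class. Filled points are cells in plate columns 1 to 3, open points cells in columns 4 to 6 and bars medians over cells; Dazl, Sycp1, Hormad1, Nanog and Prdm14 have lower medians in both single-X classes, and Dppa3 has higher ones.

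Cell cycle and pluripotency lists were set beside these results. Of 9 S phase genes tested, 2 were at least 25% higher and 0 lower, namely Ccne1 (0.70), a cyclin of entry into S phase, and Fen1 (0.34), with a list median of 0.05. Ccne1 was at 0.85 in plate columns 1 to 3 and 0.55 in columns 4 to 6, or 0.30 there without cell D06. Fen1 was at 0.37 in Cast-X and 0.29, within the limit, in Mus-X cells. Of 13 genes of G2 and mitosis tested, 2 were lower, Cdk1 (-0.94) and Bub1 (-0.42), and 1 was higher, Kif11 (0.53), with a median of -0.11. Cdk1 was lower in both classes, while Bub1 was at -0.74 in Cast-X and -0.01 in Mus-X cells. Kif11 was at 0.30, within the limit, in Cast-X and 0.84 in Mus-X cells. Of 8 naive markers tested, Pou5f1 (0.05) and Sox2 (-0.26), of the core pluripotency network, were within the limit over all single-X cells, with Pou5f1 at 0.35 and Sox2 at -0.54 in Mus-X cells. Nanog (-1.18), Zfp42 (-0.47) and Tfcp2l1 (-0.62) were lower, with Tfcp2l1 at -0.29 in Cast-X and -1.40 in Mus-X cells, and Esrrb was higher (0.34), with 0.58 and -0.17. Zfp42 was at -0.50 in plate columns 1 to 3, or -0.37 without cell D01, and within the limit in columns 4 to 6 (-0.41). Klf4 and Tbx3 passed the filter only through the biallelic cells (9.70 and 11.8 counts per cell there, 3.96 and 3.79 in single-X cells), and their log2 ratios of -1.30 and -1.66 are descriptions. The summed level of the 9 naive markers ran from 19.2 to 60.8 with a median of 40.5 in biallelic cells, from 14.8 to 42.1 with a median of 35.2 in Cast-X cells and from 12.7 to 42.2 with a median of 23.3 in Mus-X cells. Klf4, Pou5f1 and Sox2 are also in the reprogramming vectors, and the origin of their counts was not tested. None of the primed or early lineage and fibroblast markers was tested for want of counts: 5 of 7 and 7 of 8 were in the table, and their summed levels stayed at or below 1.38 and 1.92 in every cell. Of 4 two-cell-like markers listed, 0 were in the table. The part of pluripotency state and cell cycle in the levels of the writers and erasers was not tested.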

How the data were processed

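Single iPSCs were sorted into a GpC methylase mix, polyadenylated RNA was captured and amplified (G&T-seq) and Nextera XT libraries were sequenced as single-end reads. The authors deposited whole-number allelic counts per gene and allele. Per the labels, STAR 2.5.3a, SAMtools and mm10 were used, and per the study's methods reads were split by allele over strain SNPs with SNPsplit and genes with at least 4 SNPs were kept. The libraries carry no UMIs and do not mark the strand, and whether a read over several SNPs was counted once is not given in the sources used here. Genes without enough SNPs are absent, and a count reflects SNP density as well as expression.

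Classes were taken from the column names, since the labels put all cells in 1 group. Here the counts of both alleles were summed, divided by the cell's total and multiplied by 10000. Genes averaging 5 or more counts in a cell were compared by the size of the ratio of means (at least 25% higher or lower); no p-value was computed, since no separate cultures are named. Intervals are exact Poisson for counts, conditional on the sum for ratios, and Clopper-Pearson for shares, at 95%, and cover counting error only; a count of 0 allows up to 3 counts. Total counts of 71682 to 216451 per cell make 1 count worth 0.0462 to 0.140 on the level scale. Named were the members, the 3 genes most like each (1 of which is not reported here) and listed genes past the limit. The members and lists were chosen with earlier results of these data known. Gene positions are GENCODE M21 (GRCm38). Alternatives were other scalings (TMM from edgeR 4.0.16), filters, limits, medians, thinning, plate sides and leaving out each cell. The ratio code was tested on simulated data. The tools were scipy 1.17.1, pandas 2.3.3 and numpy 2.4.6 under Python 3.11.15, with matplotlib 3.10.9 for plots.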

Additional observations from a re-analysis of the deposited data

Results flagged for a closer look

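In groups of 4 to 10 cells, a cell was singled out where its gap to the next value took an unusually large part of the range (Dixon's 95% limit). Only Mus-X, with 9 cells, is small enough for this. Of 26 sets of values looked at, 8 held such a cell, and chance gives about 1 in 20 for normally distributed values, which these sparse counts are not, so that no excess can be read from the number. No explanation was tested.

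Among the members, Dnmt1 stood at 1.85 counts per 10000 in cell B01, with the next cell at 0.833, and without B01 the Mus-X log2 ratio of Dnmt1 to biallelic cells was -0.05 instead of 0.42. Dnmt3b stood at 11.5 in cell C01, with the next at 3.89, and without C01 the Mus-X log2 ratio was 0.03 instead of 0.91. The Mus share of Uhrf1 was 31.1% in C01, against at least 56.5% in the other cells with 10 counts or more.

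Among listed genes, Dazl was at 1.14 in cell D01 (next 0.278), Sycp1 at 0.707 in B05 with all others at 0, and Tbx3 at 0.518, also in B05 with all others at 0. Cdk1 was at 9.22 in E01 (next 5.22) and Klf4 at 0.698 in E04 (next 0.333).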

How the results depend on the processing

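No paired analysis was possible because the comparison comes from no test and the cells carry no shared replicate numbers. Each member's log2 ratio was computed under 16 alternatives, and it stayed above 0 in 16 for Dnmt1, 15 for Uhrf1, Dnmt3l and Tet1, 14 for Dnmt3b and 12 for Tet2. The direction turned for Dnmt3b with medians over cells (-0.34) and in plate columns 4 to 6 (-0.45), and in the same columns for Dnmt3l (-0.19), Tet1 (-0.043) and the median over the members (-0.10). Uhrf1, within the limit over all cells, was at 0.38 in plate rows A to D and -0.036 in rows E to H. Tet2, also within it over all cells, was at -0.86 in rows E to H and -0.16 in columns 4 to 6. With Cast counts only Tet2 was at -0.06, and with cells thinned to the lowest depth at -0.0082. The median over the members was 0.59 in columns 1 to 3, 0.19 with Cast-X cells only and 0.22 to 0.43 with any 1 cell left out. The number of members at least 25% higher was 4. It was 3 with autosomal counts as the total, with TMM factors and with medians over cells. It was also 3 with Cast or Mus counts only and in plate rows E to H. The number was 5 in rows A to D and in columns 1 to 3, 2 with Cast-X cells only and 1 in columns 4 to 6. With a 1.5-fold limit it was 1, with a 2-fold limit 0 and with any 1 cell left out 2 to 4. The number at least 25% lower was 0, also with any 1 cell left out, and 1 in plate rows E to H and in columns 4 to 6. The median correlation over pairs of members was -0.021 in biallelic cells only, and 0.14 and 0.15 within plate columns 1 to 3 and 4 to 6, an alternative chosen after seeing the data, as was leaving out each cell within a side of the plate. The cause was not tested in any of these. With genes of a mean of at least 1 count, 35.4% of 7984 genes were higher and 24.1% lower. The counts of Dnmt3a and Tet3 are too few to show a difference of the size seen for the other members, and without named cultures the spread between cells cannot be told apart from that between cultures.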
